A study of Vernicia fordii with 6 samples.

Results

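The unigenes described here are those named for chitinases, thaumatins and osmotins, other pathogenesis-related (PR) proteins and protease inhibitors in the transcriptome of tung tree (Vernicia fordii) flowers. They were chosen by the description of their best SwissProt match alone, and 67 of 56065 unigenes carried such a name. Male and female flower buds of 4-year old trees were compared at stage 7, when the flowers of the sexes first differ in shape, with 3 samples of each sex, each pooled from many flowers. Per the study's methods, male buds and female buds came from the same plant and were told apart under a microscope; the labels name no cultivar or treatment. A whole bud was sampled, so that fewer cells of a type and less RNA per cell cannot be told apart.

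By SwissProt name, the 67 members were 23 chitinases, 26 thaumatin and osmotin proteins, 9 other PR proteins, 4 cystatins and 5 other protease inhibitors, and no member carried the name Kunitz. All 67 had a match in the NR protein database as well, 32 of them in castor bean (Ricinus communis) and 11 in Populus trichocarpa. For 4 members the SwissProt match came from an animal or a slime mould, while the NR match of each was a plant protein. A member matching a snake venom metalloprotease inhibitor (contig_449) had a hypothetical protein of Prunus persica as its NR match, and a member matching endochitinase PR4 (contig_2507) had a protein phosphatase 2C, so that these 2 names rest on a single database. The same holds for other members whose NR match was only called a hypothetical, predicted or unknown protein. Among them were contig_3886, contig_10391 and contig_30976.

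Chitinases cut chitin, a polymer of fungal cell walls and insect cuticles that plants do not make, and many are induced by infection or wounding. Thaumatin-like proteins and osmotins form the PR-5 family, of which several members act against fungi. Some proteins of the PR-1 family, such as PR1 of Arabidopsis, are classical markers of the salicylic acid response, and PR-4 proteins bind chitin. Not each unigene with a PR-1 name need be such a marker. Cystatins block papain-type cysteine proteases, and the other inhibitors block serine or aspartic proteases of insects, microbes or the plant itself. Several of these families are also made in flowers without infection, in the pistil, the stamen or the cell wall.

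Reads counted on unigenes ran from 14099287 to 16849489 in the male libraries and from 11467832 to 40385019 in the female libraries. All levels below are RPKM (reads scaled by unigene length and library total) after TMM scaling, which corrects the library total for a few very abundant unigenes. The scaling factor was 0.319 in female replicate 3 and between 0.808 and 1.86 in the others. Female replicate 3 thus had the smallest effective depth, and its levels depend most on the scaling. On log2 of TMM-scaled counts, female replicates 1 and 2 correlated by 0.94 (Pearson). Female replicate 3 correlated with them by 0.8 and 0.796, and with male replicates 1, 2 and 3 by 0.763, 0.813 and 0.824. It was thus no closer to the other female libraries than to male replicates 2 and 3. Log2 differences are male minus female. Calls required a difference of at least 2-fold together with an adjusted p under 0.05 in edgeR's quasi-likelihood test, which was run over the 29327 unigenes left by the expression filter.

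The filter kept 50 of the 67 members, and the 17 others had between 13 and 1152 reads over the 6 libraries. Of the 50 tested, 1 was called higher in male flowers, where 1.56% of all tested unigenes were. None was called higher in female flowers, where 0.143% of all tested unigenes were. At an unadjusted p under 0.05, edgeR found 2 members higher in male and 6 in female flowers, beside 5.75% and 7.42% of all tested unigenes. DESeq2 was run on unfiltered counts, with 66 members among 55764 unigenes, and gave 60 members an adjusted p. It called 3 members higher in male and 4 in female flowers, beside 1.97% and 1.18% of those 55764 unigenes. Among these calls were contig_46418 and contig_13628, which the filter had left out of the edgeR test. The male and female libraries did not overlap in 6 members, beside 19.4% of all tested unigenes, 4 with the male libraries above (10.4% of all) and 2 with the female libraries above (9.06% of all). This depended on the scaling, since on RPKM as deposited 4 members had the male libraries above (3.46% of all) and 5 the female libraries (1.28% of all). The median log2 difference was -0.36 over the tested members and -0.09 over all tested unigenes, and 34 of the 50 members (68.0%) lay below 0, where 54.5% of all did. Without female replicate 3 the median of the members was 0.56, with 23 of 53 below 0, and that of all unigenes was -0.12, so that the direction of the median rests on this library. In that fit 3 members were called higher in male and 1 in female flowers, beside 1.83% and 0.789% of all unigenes.

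**Figure D1:**
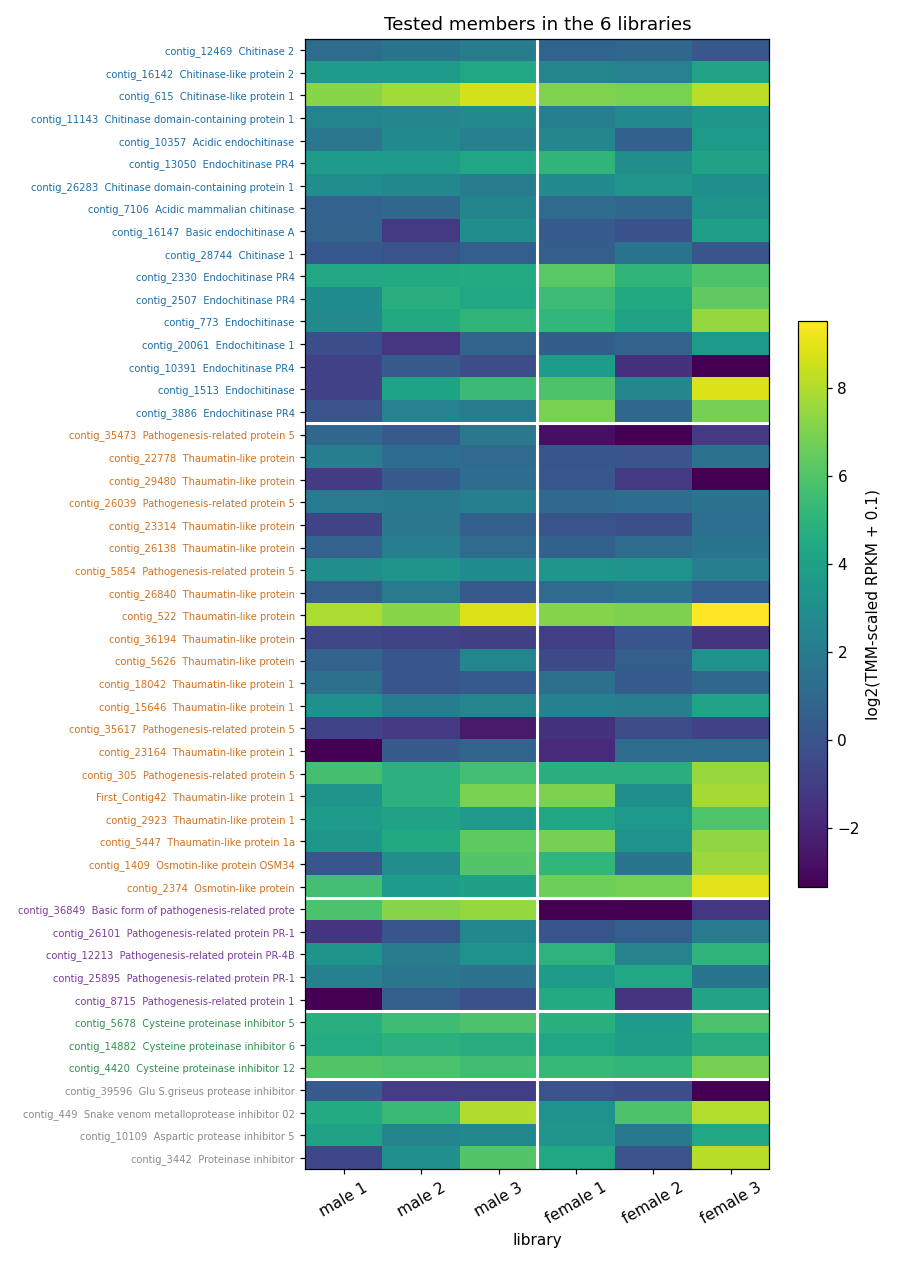
Level of the 50 tested members (rows, coloured by family) in the 3 male and 3 female libraries (columns), as log2 of TMM-scaled RPKM plus 0.1. The thaumatin-like contig_522 and the chitinase-like contig_615 are bright in all 6 libraries, and the basic PR-1 contig_36849 is bright in the male libraries alone.

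Of the 7 PR-1 unigenes, contig_36849 held the largest fitted difference between the sexes among the tested members, and in the fit blocked by replicate it was still the 1 member called higher in male flowers (1.60% of all), with 0 in female flowers (0.181% of all). This basic PR-1 had 57.9, 146 and 178 RPKM in male replicates 1, 2 and 3, and 0, 0 and 0.309 RPKM in female replicates 1, 2 and 3. No male library overlapped a female one, and the female libraries together held 1 read, where the male libraries held 5500. The pooled ratio of male to female was 15675, with a 95% counting interval (exact, counting error only) from 2812 to 619229. The fit put it at 13.09 on the log2 scale with an SE of 1.28 (edgeR adjusted p = 0.00182), and it was called in each of the 14 alternative fits that tested it, with adjusted p values from 1.31e-14 to 0.0156. The study had listed contig_36849 as differentially expressed on these same samples. Its best NR match was an STS14 protein of castor bean, named after a PR-1 relative that was described from the pistil of potato.

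A second PR-1 unigene with an STS14 match, contig_46418, showed the same contrast but did not pass the filter, and it was singled out after its values were seen. It had 0.675, 28.2 and 37.3 RPKM in male replicates 1, 2 and 3 and 0.0347, 0 and 0 RPKM in female replicates 1, 2 and 3. Male replicate 1 was therefore far below the other male libraries, and still above all female libraries. Over 1150 male and 2 female reads the ratio of male to female was 1639 (95% counting interval 453 to 13548). When no filter was applied its log2 difference was 10.35 (adjusted p = 0.00270, edgeR), over a range of adjusted p from 2.44e-11 to 0.184 in the fits that included it. It made up the count of 2 members called higher in male flowers, with contig_36849, both at a mean RPKM of at least 5 (adjusted p = 0.0496, 1.53% of all) and without male replicate 1 (adjusted p = 0.00144, 1.85% of all), and of 3 with no filter (1.28% of all). It was not called without female replicate 1 (adjusted p = 0.178), female replicate 2 (0.184) or female replicate 3 (0.0562) in edgeR.

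Some markers of pollen and anther had the same direction as these PR-1 unigenes. Of 31 unigenes named for pollen, anther or tapetum or matching exopolygalacturonase, 24 were tested, and 7 were called higher in male (1.56% of all tested) and 0 in female flowers (1 with DESeq2, and 0 in edgeR at an unadjusted p under 0.05). The 7 were 3 exopolygalacturonases, 2 Ole e 6 allergens, an SF3 protein and a leucine-rich repeat extensin, while the median log2 difference of the 24 was 0.45 and 8 of them lay below 0. Their summed level was 1520 to 1996 RPKM in the male and 168 to 326 RPKM in the female libraries, and 2 of the 31 had no read in female flowers and 1 none in male flowers. The 2 unigenes named for carpel and ovule (AGL11 and YABBY 4) summed to 4.81 to 5.64 RPKM in the male and 5.52 to 9.19 RPKM in the female libraries. Whether anther cells account for the level of contig_36849 and contig_46418 was not tested.

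The other tested members of the PR-1 and PR-4 families did not follow this contrast. The untested PR-1 unigenes contig_18656 and contig_54095 and PR-4 unigene contig_26952 had 27, 36 and 46 reads in all. In these the sexes overlapped after TMM scaling. The third STS14 match, PR-1 contig_25895, had 4.62, 3.18 and 2.86 RPKM in male replicates 1, 2 and 3 and 13.5, 20.8 and 3.03 RPKM in female replicates 1, 2 and 3. Female replicate 3 lay within the male range, and the log2 difference of -1.84 (SE 0.63) did not pass (adjusted p = 0.286, edgeR). Without female replicate 3 it was -2.13 and was called (adjusted p = 0.0340, edgeR, over a range from 0.0340 to 1). The fourth, contig_26101, had 0.275 to 6.14 RPKM in male and 0.988 to 3.89 RPKM in female flowers.

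PR-1 contig_8715, which matches the salicylate marker PR1 of Arabidopsis, had 0, 1.36 and 0.843 RPKM in male replicates 1, 2 and 3, against 22.5, 0.283 and 17.8 RPKM in female replicates 1, 2 and 3. The female libraries thus differed by more among themselves than the means of the sexes did, and the log2 difference of -4.10 (SE 1.49) did not pass (adjusted p = 0.306, edgeR). It was called with DESeq2 and with library totals in place of TMM (adjusted p = 0.0311 and 0.0351), over a range from 0.0311 to 0.560. With library totals contig_8715 and the endochitinase contig_3886 were the 2 members called higher in female flowers, beside 0.188% of all. The PR-4 unigene contig_12213, whose NR match is a wound-induced protein WIN1, had 9.79, 4.19 and 9.50 RPKM in male and 30.7, 5.16 and 32.5 RPKM in female replicates 1, 2 and 3 (log2 difference -1.54, SE 0.68, adjusted p = 0.393, edgeR). Here too female replicate 2 stood with the male libraries.

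**Figure D2:**
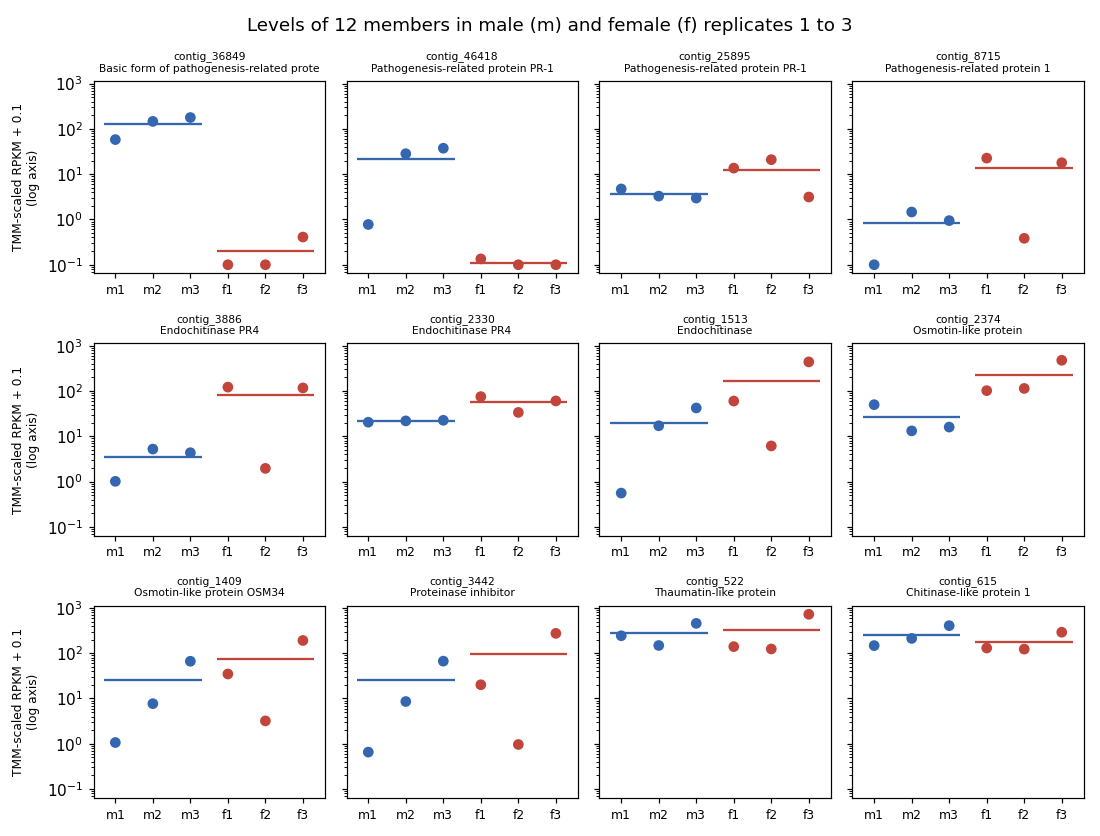
TMM-scaled RPKM plus 0.1 of 12 members on a log axis, with points for male (m) and female (f) replicates 1 to 3 and lines at the mean of each sex. The sexes are far apart in contig_36849, while in contig_3886, contig_8715, contig_1513, contig_1409 and contig_3442 female replicate 2 and male replicate 1 lie far below the other libraries of their sex.

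Chitinases were mostly below 0 on the log2 scale, 14 of the 17 tested (54.5% of all tested unigenes), with a median of -0.72. None passed the test. At an unadjusted p under 0.05 edgeR had 0 higher in male (5.75% of all) and 3 in female flowers (7.42% of all). DESeq2 called 1, contig_3886, higher in female flowers (1.18% of all its unigenes). The median of the chitinases was below 0 in each alternative, as was that of all unigenes. It was nearest to 0 without female replicate 3 (-0.34, 10 of 17 below 0, median of all unigenes -0.12). With DESeq2 it was -0.37 beside -0.39 for all unigenes, and with no filter -0.38 beside -0.35. In the other alternatives it lay further below that of all unigenes. The chitinases carrying the name endochitinase PR4, a class IV enzyme of bean, numbered 5.

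Endochitinase contig_2330 was the chitinase with the most even difference. It had 20.4, 21.8 and 22.5 RPKM in male replicates 1, 2 and 3 and 75.2, 33.6 and 60.3 RPKM in female replicates 1, 2 and 3, and the sexes did not overlap. Its log2 difference was -1.38 (SE 0.36), with an unadjusted p of 0.00507 and an adjusted p of 0.156 (edgeR), and no alternative called it. Contig_3886, of the same name, had 0.914, 5.13 and 4.25 RPKM in male and 122, 1.86 and 117 RPKM in female replicates 1, 2 and 3. Female replicates 1 and 3 were thus close to each other, and female replicate 2 lay inside the male range. The log2 difference was -4.53 (SE 1.34, adjusted p = 0.217, edgeR). It was called without female replicate 2 (adjusted p = 0.0225, with 0.0269% of all unigenes called higher in female flowers), with DESeq2 and with library totals in place of TMM, over a range from 0.00129 to 0.479. Another member of this name, contig_10391, singled out after its values were seen, was at 13.5 RPKM in female replicate 1, at 0.257 and 0 RPKM in female replicates 2 and 3, and between 0.471 and 1.18 RPKM in the male libraries.

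The endochitinases that match enzymes of pea (contig_1513) and bean (contig_773) had their highest level in female replicate 3. Contig_1513 had 0.458, 17.0 and 42.2 RPKM in male replicates 1, 2 and 3 and 60.0, 6.04 and 439.8 RPKM in female replicates 1, 2 and 3 (log2 difference -3.08, SE 1.65, adjusted p = 0.473, edgeR). Contig_773 had 6.79, 22.2 and 32.9 RPKM in male and 36.2, 16.7 and 176 RPKM in female replicates 1, 2 and 3 (log2 difference -1.88, SE 0.91, adjusted p = 0.429, edgeR). In both, the libraries of the sexes overlapped, with female replicate 2 below male replicates 2 and 3. Contig_2507 had 7.51 to 26.8 RPKM in male and 22.3 to 82.2 RPKM in female flowers and overlapped as well (log2 difference -1.45, SE 0.61, adjusted p = 0.369, edgeR). The study listed contig_773, contig_1513, contig_2330, contig_2507 and contig_3886 as differentially expressed on these same samples. It also listed contig_2374, contig_5447, contig_25895 and contig_36849. That is a reason for naming them, and some, such as contig_1513 and contig_2330, also met another rule given below.

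Chitinase-like proteins 1 and 2 of Arabidopsis lack the residues for cutting chitin and take part in cellulose deposition in the cell wall. The unigene of chitinase-like protein 1, contig_615, was the chitinase with the highest mean RPKM, with 147, 212 and 406 RPKM in male and 130.1, 123 and 290.4 RPKM in female replicates 1, 2 and 3. It made up 58.6% to 66.9% of the summed level of all chitinases in the male libraries and 23.8% and 50.1% in female replicates 1 and 2, whereas contig_1513 led in female replicate 3. Its log2 difference of 0.50 (SE 0.59) was within the spread between replicates (adjusted p = 0.753, edgeR). Chitinase-like protein 2 (contig_16142), named after its values were seen, had 13.5 to 20.0 RPKM in male and 5.59, 5.07 and 17.6 RPKM in female replicates 1, 2 and 3, and was called only without female replicate 3 (log2 difference 1.70, adjusted p = 0.0465, edgeR, range 0.0465 to 1). Chitinase 2 (contig_12469), related to a bulb chitinase of tulip, did not overlap, with 2.24 to 4.01 RPKM in male and 1.0 to 1.82 RPKM in female flowers (log2 difference 1.0, SE 0.46, adjusted p = 0.405, edgeR). The 2 chitinase domain-containing proteins had 4.08 to 7.75 RPKM in male and 4.59 to 10.9 RPKM in female flowers.

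Among the thaumatin and osmotin proteins, 21 of 26 were tested, 13 of them below 0 (54.5% of all tested unigenes). Their median was -0.29, and 0.56 without female replicate 3. None passed the test, and at an unadjusted p under 0.05 edgeR had 1 higher in male (5.75% of all) and 1 in female flowers (7.42% of all). DESeq2 called 3, contig_35473 higher in male flowers and contig_2374 and contig_13628 higher in female flowers. Over all its unigenes the shares were 1.97% and 1.18%. Contig_522, which matches a thaumatin-like protein of Arabidopsis, was the most abundant, with 48.3% to 58.3% of the summed level of the family in the male libraries and 23.2% to 37.9% in the female libraries. It had 243, 148 and 456 RPKM in male replicates 1, 2 and 3 and 139.6, 124 and 723 RPKM in female replicates 1, 2 and 3. Its log2 difference of -0.22 (SE 0.81, adjusted p = 0.930, edgeR) turned to 0.19 with library totals and to 1.24 without female replicate 3.

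Of the thaumatin and osmotin proteins above in female flowers, the osmotin-like contig_2374 came closest to the threshold. It had 49.9, 13.1 and 15.9 RPKM in male replicates 1, 2 and 3, against 102, 114 and 478 RPKM in female replicates 1, 2 and 3, and every female library lay above every male one. The log2 difference was -3.13 (SE 0.83), with an unadjusted p of 0.00548 and an adjusted p of 0.164 (edgeR). DESeq2 and limma, the latter on log2 of RPKM as deposited and without TMM, called it (adjusted p from 0.00348 to 0.0163), over a range from 0.00348 to 0.468. It was the 1 member that limma called higher in female flowers at either pseudocount, beside 0.0614% (0.1 added) and 0.0580% (1 added) of all unigenes. Without female replicate 3 the log2 difference was -1.91 (adjusted p = 0.0919, edgeR).

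Contig_35473, a match of PR-5 of Arabidopsis, had the opposite direction at a low level. It had 1.75, 1.15 and 3.25 RPKM in male replicates 1, 2 and 3, and 0.0449, 0 and 0.343 RPKM in female replicates 1, 2 and 3. These levels rest on 69 male and 3 female reads, a ratio of male to female of 65.5 (95% counting interval 21.5 to 326). Its log2 difference was 5.68 (SE 1.23) with an adjusted p of 0.0854 (edgeR). It was called with DESeq2, with no filter and without female replicate 3 (adjusted p = 4.73e-04, 0.0498 and 0.0364), over a range from 4.73e-04 to 0.350. The reverse contrast was seen in the thaumatin-like contig_13628, with an osmotin as its NR match, which did not pass the filter and was singled out after its values were seen. It had 1 male read in all, and 0.954, 0.230 and 10.6 RPKM in female replicates 1, 2 and 3, a ratio of female to male of 31.6 (95% counting interval 5.53 to 1261). It was called with DESeq2 (adjusted p = 0.00204) and in no edgeR fit that included it, over a range from 0.00204 to 0.467.

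Osmotin-like OSM34 (contig_1409), singled out after its values were seen, had 0.966, 7.59 and 66.3 RPKM in male and 34.7, 3.10 and 191 RPKM in female replicates 1, 2 and 3. The thaumatin-like contig_5447 had 10.8, 21.9 and 79.2 RPKM in male and 118, 9.53 and 166 RPKM in female replicates 1, 2 and 3 (log2 difference -1.38, SE 1.02, adjusted p = 0.599, edgeR). First_Contig42, also a thaumatin-like protein 1 and only 464 bp long, had 9.77, 28.9 and 121 RPKM in male and 127, 8.22 and 219 RPKM in female replicates 1, 2 and 3. Contig_5447 and First_Contig42 ranked the 6 libraries in the same order. Contig_5447 is 315 bp long, the shortest member, and whether it and First_Contig42 are pieces of 1 gene was not tested. How reads shared by similar unigenes were counted was not stated, so that values within these families are uncertain where copies are alike.

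**Figure D3:**
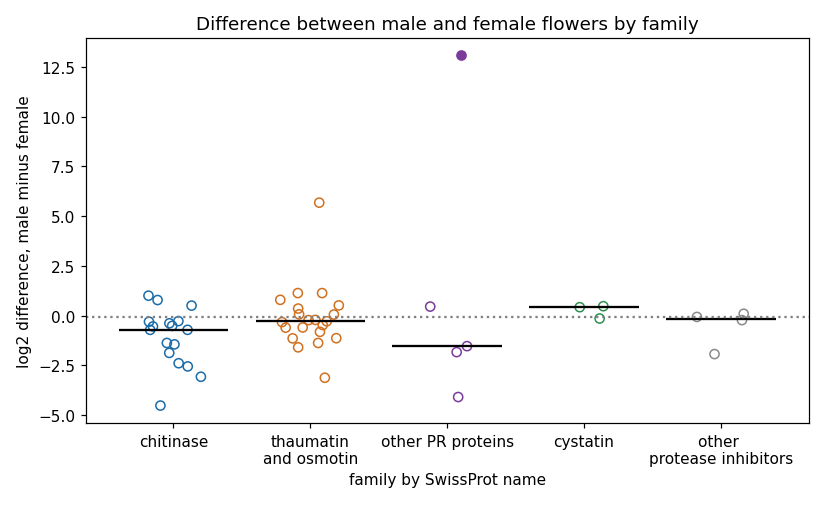
Log2 difference, male minus female, of each tested member by family, with a line at the family median, filled points for called members and a dotted line at the median of all tested unigenes (-0.09). The only filled point is contig_36849 at 13.09, and 14 of 17 chitinases lie below 0 (54.5% of all tested unigenes do).

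Protease inhibitors were not called in either direction, with no member at an unadjusted p under 0.05 and none called by DESeq2. The median SD of log2(RPKM + 0.1) of the 3 tested cystatins was 0.23 over the male and 0.99 over the female libraries, where that of all tested unigenes was 0.47 and 0.58. Contig_4420, matching a rice cystatin, had 65.6, 57.7 and 47.6 RPKM in male and 37.8, 34.3 and 118 RPKM in female replicates 1, 2 and 3 (log2 difference -0.15, SE 0.51, adjusted p = 0.925, edgeR), with the sign turned under library totals (0.06). Contig_5678 had 26.2 to 60.7 RPKM in male and 12.8 to 56.0 RPKM in female flowers (log2 difference 0.47, SE 0.55, adjusted p = 0.753, edgeR). Contig_14882 had 23.6 to 28.8 RPKM in male and 14.4 to 25.0 RPKM in female flowers.

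The other inhibitors differed far more between libraries. Contig_3442, whose match is a proteinase inhibitor of flax and whose NR match is a proteinase inhibitor of Jatropha curcas, had 0.555, 8.47 and 66.7 RPKM in male replicates 1, 2 and 3 and 20.0, 0.864 and 274 RPKM in female replicates 1, 2 and 3. The log2 difference of -1.94 (SE 1.85, adjusted p = 0.686, edgeR) was 1.43 without female replicate 3. Contig_449 had 22.7, 41.0 and 247 RPKM in male and 9.39, 60.9 and 259 RPKM in female replicates 1, 2 and 3, and replicate 3 was the highest in both sexes. The aspartic protease inhibitor contig_10109, with an NR match to an alpha-amylase and subtilisin inhibitor, had 5.44 to 16.4 RPKM in male and 3.58 to 20.3 RPKM in female flowers. The 2 members matching a protease inhibitor of bitter gourd had at most 1.21 RPKM in any library.

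The members differed more between replicates than the other unigenes did. The median SD of log2(RPKM + 0.1) was 0.76 over the male and 1.21 over the female libraries for the tested members, and 0.47 and 0.58 for all tested unigenes. Male libraries were at least 10-fold apart in 9 of the 50 members, beside 5.58% of all tested unigenes. Female libraries were at least 10-fold apart in 17 members, beside 12.6% of all. These shares are descriptions, chosen after the values were seen, and carry no test.

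**Figure D4:**
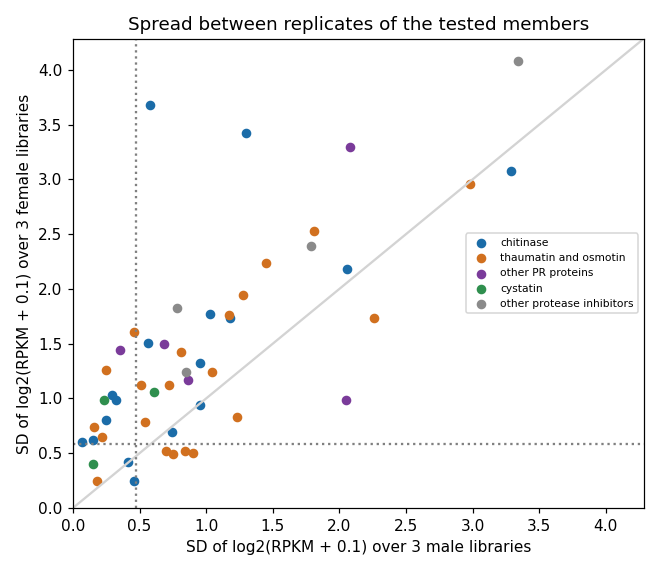
SD of log2(TMM-scaled RPKM + 0.1) over the 3 male libraries (horizontal axis) and the 3 female libraries (vertical axis) for each tested member, coloured by family, with dotted lines at the medians of all tested unigenes (0.47 and 0.58) and a grey line where both are equal. Contig_3442, contig_1513, contig_1409 and contig_8715 lie at the upper right, far above both dotted lines.

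Of further patterns likewise chosen after the values were seen, 1 concerned female replicate 2. In 10 of the 50 members (20.0%) female replicate 2 lay at least 4-fold below both other female libraries, beside 0.951% of all tested unigenes. On RPKM as deposited there were 7, beside 0.344%. Both counts include contig_35473, which was near the floor, with 2, 0 and 1 reads in female replicates 1, 2 and 3. Male replicate 1 lay at least 4-fold below both other male libraries in 6 members, beside 3.68% of all. Both held in 5 members, beside 0.276% of all, and these were contig_1513, contig_3886, contig_8715, contig_1409 and contig_3442, that is 2 endochitinases, PR-1, osmotin-like OSM34 and a proteinase inhibitor. Members of 4 of the 5 families thus shared the libraries in which they were low.

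Female replicate 3 was the highest library in 22 of the 50 members (44.0%), beside 20.1% of all tested unigenes. This count depends on the scaling, since on RPKM as deposited it was 5, beside 1.15% of all. The summed level of all 67 members was 886, 1043 and 2146 RPKM in male replicates 1, 2 and 3 and 1342, 728 and 4179 RPKM in female replicates 1, 2 and 3. As deposited, the sums were 712, 1418 and 1878 RPKM in male and 2290, 1327 and 1330 RPKM in female replicates 1, 2 and 3, so that female replicate 1 and not female replicate 3 was then the highest. The sexes overlapped on both scales. Contig_522 and contig_615 together held 34.5% to 44.1% of the summed level in the male libraries and 20.1% to 33.9% in the female libraries.

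**Figure D5:**
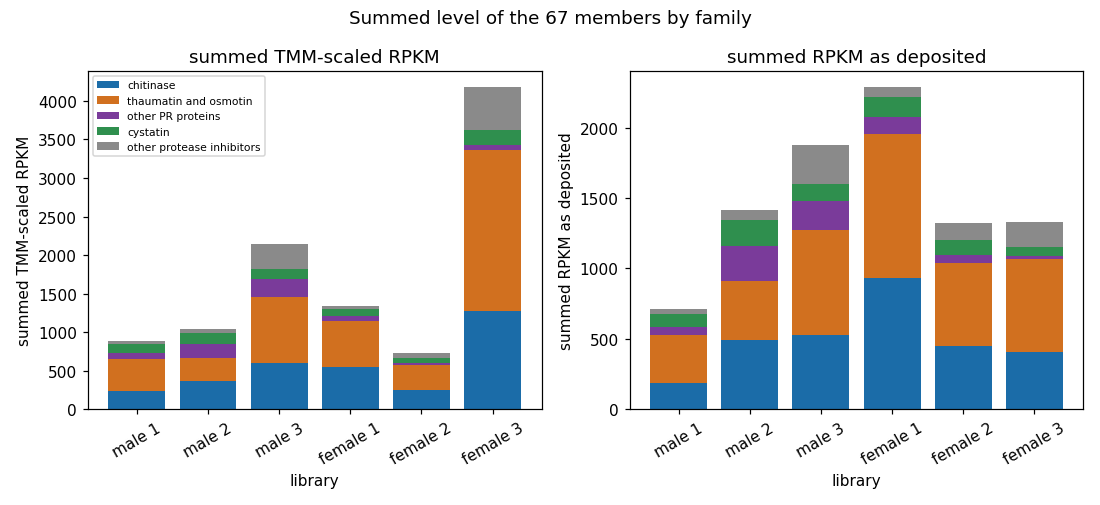
Summed level of the 67 members in each male and female library, stacked by family, as TMM-scaled RPKM (left) and as RPKM deposited by the authors (right). The highest library is female 3 with 4179 on the left and female 1 with 2290 on the right.

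Markers of other tissues also differed between these libraries. The 47 unigenes of green tissue (chlorophyll a-b binding proteins, oxygen-evolving enhancers and the small subunit of rubisco) summed to 3740, 2088 and 3751 RPKM in male replicates 1, 2 and 3 and to 948, 1400 and 8878 RPKM in female replicates 1, 2 and 3. Of the 47, 8 had no read in female flowers. These 8 were seen in male replicate 3, at no more than 5.84 RPKM. In male replicates 1 and 2 they had no read either, apart from 0.154 RPKM of contig_53745 in male replicate 1. The 5 phloem unigenes summed to 20.4 to 56.4 RPKM in male flowers and to 81.3, 22.7 and 32.0 RPKM in female replicates 1, 2 and 3. Green tissue markers were thus highest in female replicate 3 and phloem markers in female replicate 1. On RPKM as deposited the green tissue sum was 3008, 2838 and 3283 in male and 1619, 2553 and 2824 in female replicates 1, 2 and 3, so that male replicate 3 was then the highest, while the phloem sum was still highest in female replicate 1 (139). Their part in the levels of the members was not tested.

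Other genes of defence and proteolysis were taken from lists of SwissProt names. Beside the counts of these lists, 5.75% of all tested unigenes were higher in male flowers at an unadjusted p under 0.05 in edgeR. The share higher in female flowers was 7.42%. DESeq2 called 1.97% of all its unigenes higher in male and 1.18% in female flowers. Beta-1,3-glucanases include the PR-2 enzymes that often appear together with chitinases, but not each unigene of that name need be one. Of 50 such unigenes 45 were tested and none was called, with 2 at an unadjusted p under 0.05 and 2 called by DESeq2 in each direction. The basic vacuolar beta-1,3-glucanase contig_5312 had 0.270, 1.75 and 5.64 RPKM in male and 31.9, 1.39 and 31.8 RPKM in female replicates 1, 2 and 3 (log2 difference -3.08, SE 1.25, adjusted p = 0.352, edgeR). As in contig_3886 and contig_8715, female replicates 1 and 3 stood far above the other 4 libraries. A far more abundant glucanase, contig_26597, had 9642, 615 and 4620 RPKM in male and 485, 116 and 36391 RPKM in female replicates 1, 2 and 3.

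Chitin and LysM receptors (15 of 17 tested), unigenes named for an NPR protein or isochorismate synthase (5 of 5) and cysteine proteases (17 of 24), most of them of the papain type that cystatins block, had no member called by edgeR and none at an unadjusted p under 0.05. The NPR names included NPR5 as well as NPR1 and NPR3, and not each need be a salicylate regulator. DESeq2 called 2 of the cysteine proteases higher in male flowers. Subtilisin-like proteases had 41 of 66 tested and none called, with 2 higher in male and 3 in female flowers at an unadjusted p under 0.05, and DESeq2 called 3 higher in male flowers. Without female replicate 3, edgeR called 1 subtilisin-like protease higher in female flowers (0.789% of all). Of 11 defensins and snakins 6 were tested and none called, with 1 at an unadjusted p under 0.05, the defensin-like contig_4975. It had 0, 0.689 and 1.79 RPKM in male and 16.0, 2.68 and 101 RPKM in female replicates 1, 2 and 3 (log2 difference -5.55, SE 1.51, adjusted p = 0.177, edgeR), and the sexes did not overlap. DESeq2 called 1 defensin or snakin in each direction. The 6 alpha-amylase/subtilisin inhibitors, whose name the rule does not take in, had 4 tested and none called, with 0 at an unadjusted p under 0.05 and 0 called by DESeq2. In all 6 female replicate 2 lay at least 4-fold below both other female libraries, as in contig_2579 with 0.907, 1.65 and 3.79 RPKM in male and 7.19, 0.565 and 23.2 RPKM in female replicates 1, 2 and 3, an example chosen after its values were seen. Of 3 other inhibitors outside the rule (serpin and inter-alpha-trypsin inhibitor) all were tested and none called, with 1 higher in female flowers at an unadjusted p under 0.05 and 0 called by DESeq2.

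The 17 members that were not tested were 6 chitinases, 5 thaumatin and osmotin proteins, 4 other PR proteins, 1 cystatin and 1 other inhibitor. Apart from contig_46418 none had more than 252 reads in all, which limits what could be detected in them. The tested members contig_29480 and contig_35473 had only 66 and 72 reads, so that the total of reads alone did not decide the filter. In 4 of them the sexes did not overlap, contig_46418, the chitinase-like contig_46482 and contig_46766 with the male libraries above, and contig_13628 with the female libraries above, beside 2.54% and 13.0% of the 25336 untested unigenes with a like range of reads. On RPKM as deposited contig_46766 overlapped and the PR-4 unigene contig_26952 had the male libraries above in its place, so that 3 had the male and 1 the female libraries above, beside 1.90% and 7.05%. Contig_46482 rested on 3, 5 and 6 reads in male and 2, 0 and 0 reads in female replicates 1, 2 and 3, and contig_46766 on 4, 2 and 3 reads in male and 0, 6 and 0 reads in female replicates 1, 2 and 3.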

How the data were processed

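RNA of 3 male and 3 female stage 7 bud samples was sequenced on the Illumina platform, and all 6 libraries were used. The authors trimmed the reads, assembled unigenes de novo with CLC Genomics Workbench and CAP3, and deposited read counts and RPKM values per unigene and library. Which program counted reads was not given in the sources used here. Recomputing the authors' RPKM values from reads, length and library total gave relative deviations of at most 4.73e-08. The table's columns are named an and gy, and were taken as androecium (male) and gynoecium (female), because their means are the group means in the study's gene list. Left out were 7 lines without a unigene of their own.

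The counts were tested with edgeR 4.0.16 under R 4.3.3 (filterByExpr, TMM, quasi-likelihood F test, prior count 0.125, Benjamini-Hochberg adjustment over all tested unigenes) and with DESeq2 1.42.0. Limma 3.58.1 was run on log2 of RPKM as deposited, without TMM, over the unigenes that edgeR tested. Tables and figures were made in Python 3.11.15. Each SE was obtained as the size of the log2 difference over the root of the F statistic. The script was tested on simulated data. Members, families and lists were chosen by SwissProt name with earlier results of these data known. Named members were those called, the 2 with the highest mean RPKM in each family, up to 3 in each direction with the largest difference among those without overlap, and those in the study's list of DEGs. Deviations of same-numbered male and female samples from the mean of their sex correlated by 0.19, 0.13 and 0.37, so that by a rule of more than 0.1 in every pair the numbers were taken as pairing the samples, in the block fit; another pair (male replicate 1 with female replicate 2) reached 0.16. P-values measure only the spread between these pooled samples, which may be technical. No sequence of a unigene was used here. Alternatives were other filters, scalings and tools, no fold threshold, the replicate block and each library left out.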

Additional observations from a re-analysis of the deposited data

How the results depend on the processing

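The number of all unigenes called was 499, and was 1755 with DESeq2, 802 with no filter, 287 when a mean RPKM of 5 was required, and between 269 (without female replicate 2) and 970 (without female replicate 3) with a library left out. Of these calls 8.42% were higher in female flowers, against 37.4% with DESeq2 and 30.1% without female replicate 3. Members called higher in male flowers numbered 1, and 3 with DESeq2 or no filter, 2 when a mean RPKM of 5 was required, and 1 to 3 with a library left out (3 without female replicate 3, 2 without male replicate 1). Members called higher in female flowers numbered 0, and 4 with DESeq2, 2 with library totals, 1 with limma at either pseudocount, and 0 to 1 with a library left out (1 without female replicate 2 or female replicate 3). The cause was not tested. With the replicate number as a block, which pairs the samples, 521 unigenes were called, 1 member in male and 0 in female flowers, and no call of a named member changed. Library totals moved the median of all unigenes by -0.32, and the median of the members then differed from it by -0.02, against -0.27 with TMM, 0.22 with DESeq2, 0.24 with no filter, 0.05 without male replicate 1 and 0.68 without female replicate 3.

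Over 18 named members, 219 of 250 values kept direction and side of the threshold, 10 passed the threshold and 21 changed sign, in 4 members that passed in no fit. With library totals, limma and the replicate block, contig_4420 had 0.06, 0.06 and 0.11, contig_449 had 0.46, 0.19 and 0.19, and contig_522 had 0.19, 0.11 and 0.13. With no filter contig_449 had 0.09. With a library left out, contig_3442 ran from -4.31 to 1.43, contig_4420 from -0.45 to 0.80, contig_449 from -1.69 to 1.71 and contig_522 from -0.69 to 1.24. Depth limits most of the 17 untested members, though not contig_46418 with 1152 reads, and those with few reads in female replicate 3.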
